A study of Mus musculus with 14 samples.

Results

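RGS genes (regulators of G protein signalling) were followed in the nucleus accumbens and in sorted oligodendrocytes of mice given morphine or saline. The 10 genes were taken by symbol from a fixed list: Rgs2, Rgs4, Rgs5, Rgs7, Rgs8, Rgs9, Rgs10, Rgs14, Rgs16 and Rgs20. All 10 symbols were found in each of the 8 accumbens tables, among 20837 symbols kept, and in the table of sorted cells, among 32920 symbols. The rule uses gene names alone, but the list was chosen with earlier results of these data known.

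A G protein-coupled receptor, such as an opioid or dopamine receptor, loads GTP onto a G alpha subunit, and the signal lasts until that GTP is hydrolysed. An RGS protein binds the active G alpha subunit through its RGS domain and speeds the hydrolysis, so it shortens the signal. RGS proteins fall into subfamilies that differ in the G alpha subunits they prefer and in the domains beside the RGS domain, and in the striatum several of them are known as brakes on dopamine and opioid receptor signalling.

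The mice were male C57BL/6 animals that received an intraperitoneal injection of saline (called mock) or morphine sulfate, and dose and interval are not given in the sources used here. The accumbens was dissociated with papain and measured by Drop-seq, which counts transcripts per cell through unique molecular identifiers (UMIs), in 4 mock and 4 morphine pools of 2 mice each. Pools 1 and 2 of either group came from younger mice of 37 to 45 days and pools 3 and 4 from older mice of 78 to 82 days. The myelin-forming oligodendrocytes of 3 mock and 3 morphine mice aged 70 days were isolated by FACS from the entire brain, and their amplified RNA was sequenced. The table of these cells numbers its columns 1 to 3 in each group, and each column was taken as 1 mouse.

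In the accumbens, 31563 cells were analysed, 2672 to 5554 per pool, with a median of 1708 to 2736.5 UMIs per cell. Clustering made without any Rgs gene gave 20 classes that carry the marker genes of a known cell type. Red blood cells (122 cells) were left out, and 18 of the other 19 had enough cells in enough pools for a test. Each name stands for cells like that type by its markers: D1 neurons for medium spiny neurons with Drd1, Pdyn and Tac1, D2 neurons for those with Penk, Gpr6 and Adora2a, and D1 Foxp2 neurons for those with Foxp2, Tac2 and Lypd1. Another 2250 cells stayed unnamed. Naming each cell by marker scores instead gave the same type to 59.6% of D1 neurons, 67.1% of D2 neurons and 95.6% of oligodendrocytes. Of the interneurons with Vip and Nts, 50.5% scored as interneurons. For D1 Foxp2 neurons the most common outcome by score was unnamed (46.2%). Between 0 and 8 cell barcodes were shared by any 2 pools. Levels are CPM, the UMIs of a gene per 1000000 UMIs of the class in a pool, and replicates are pools, not cells. Each pool and each sorted library is a separate sample by the labels, and p-values measure the spread between these samples. A lower level in all cells together can come from fewer cells of a type or from less RNA per cell, which cannot be told apart there. Each sorted library had between 14989118 and 23456702 reads assigned to a gene. Their 12 oligodendrocyte markers made up 62877 to 65881 CPM in the mock group and 66477 to 67567 CPM in the morphine group.

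Rgs9 and Rgs7 belong to the R7 subfamily, whose proteins work as stable dimers with the G beta subunit encoded by Gnb5. Rgs9 encodes the retinal regulator of phototransduction and, as a longer splice form, a regulator enriched in striatal neurons that acts on D2 dopamine and mu opioid receptor signalling. The gene lies on the minus strand of chromosome 11 (GRCm38, 109225355 to 109298129). It was highest in the spiny neurons. In D1 neurons the mock pools 1 to 4 held 822, 843, 660.3 and 868 CPM and the morphine pools 1 to 4 held 931, 680.1, 813 and 777 CPM. In D2 neurons they held 782, 864, 608 and 777 CPM and 929.9, 631, 935 and 759.6 CPM. The treatment groups overlapped fully in both classes, and the means of 799 ± 91.5 CPM (SD, n = 8) in D1 and 786 ± 123 CPM in D2 neurons lay within the spread of each other. The D1 Foxp2 neurons held 431 ± 77.996 CPM, below the D1 neurons in 8 of 8 pools, a 1.85-fold lower mean. Rgs9 thus stood at 54.0% of its highest spiny level there. The 10 medium spiny neuron markers had a median of 50.1% of theirs in the same class.

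Outside the spiny neurons Rgs9 lay between 5.39% (interneurons with Pthlh and Pvalb) and 23.3% (microglia) of its highest spiny level. The 10 medium spiny neuron markers were taken as genes that other cells lack or hold at lower levels. They had a median of 4.84% and 13.6% of their own spiny levels in these 2 classes. In microglia the highest of these markers stood at 20.9%, and in endothelial cells, where Rgs9 stood at 14.96%, at 12.8%. Oligodendrocytes also had Rgs9 (8.31%) above the highest marker (7.84%). In all other non-spiny classes Rgs9 lay below the highest marker. Examples are astrocytes (16.2% against 24.4%), perivascular macrophages (20.9% against 52.1%) and excitatory neurons (8.79% against 31.9%). In every non-spiny class Rgs9 lay above the median marker, which stood at 9.12%, 16.4% and 6.52% in these examples. The highest marker reached 157% in neuroblasts, so not all 10 were lower outside the spiny neurons. What part of these Rgs9 levels comes from RNA of spiny neurons was not tested. Over the 19 classes the profiles most like that of Rgs9, among 12818 genes reaching 20 CPM in at least 1 class, included those of Ppp1r1b (Pearson's r 0.97 of log2(CPM + 1) class means) and Syndig1l (0.97). Ppp1r1b encodes DARPP-32, the phosphatase inhibitor downstream of dopamine receptors. It is also among the spiny markers used to name the classes, and all class means come from the same 8 libraries.

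The bases before the RefSeq start of Rgs9 are shown because the gene followed the spiny neurons, and those of Rgs5 and Rgs4 because these neighbours on chromosome 1 shared their 2 highest classes. Each window holds the 250 bases upstream of a start (RefSeq, GRCm38.p6), 5′ to 3′ on the gene's strand, at chr11:109298182-109298431 (minus strand) for Rgs9, chr1:169655251-169655500 (plus) for Rgs5 and chr1:169747643-169747892 (minus) for Rgs4. The RefSeq start of Rgs9 did not match a GENCODE transcript start. Capitals mark matches, on either strand, to TATAAA (the TATA box), CCAAT (the CCAAT box), GGGCGG (the GC box), CACGTG (the E box) and TGACG (the core of the cAMP response element, TGACGTCA, which holds it).
Rgs9: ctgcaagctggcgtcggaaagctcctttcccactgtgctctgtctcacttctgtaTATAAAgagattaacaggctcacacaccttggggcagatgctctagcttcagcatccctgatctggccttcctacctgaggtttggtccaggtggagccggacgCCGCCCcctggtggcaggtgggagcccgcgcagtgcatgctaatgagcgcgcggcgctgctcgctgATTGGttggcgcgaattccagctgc
Rgs5: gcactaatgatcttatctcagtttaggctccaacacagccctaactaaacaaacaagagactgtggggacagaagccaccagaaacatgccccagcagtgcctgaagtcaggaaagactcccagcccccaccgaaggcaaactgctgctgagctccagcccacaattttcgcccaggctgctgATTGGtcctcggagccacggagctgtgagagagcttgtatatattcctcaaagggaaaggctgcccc
Rgs4: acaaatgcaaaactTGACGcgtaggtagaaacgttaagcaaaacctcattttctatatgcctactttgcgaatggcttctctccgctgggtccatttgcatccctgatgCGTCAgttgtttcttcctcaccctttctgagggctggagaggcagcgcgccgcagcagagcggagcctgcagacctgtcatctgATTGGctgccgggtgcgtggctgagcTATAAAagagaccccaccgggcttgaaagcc
The Rgs4 window held 1 TATAAA beginning 31 bases before the start, 1 CCAAT and 2 TGACG. The Rgs5 window held 1 CCAAT beginning 67 bases before the start and no other motif searched. The Rgs9 window held 1 TATAAA beginning 195 bases before the start, 1 GGGCGG and 1 CCAAT. Of 32851 windows of this length, 12.4% held TATAAA, 33.8% CCAAT, 32.7% GGGCGG, 1.55% TGACGTCA, 6.02% CACGTG and 17.8% TGACG. A match describes the letters of the window and is not a binding site shown by these data.

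Rgs7, the other R7 member, had its highest mean of 45.3 ± 19.6 CPM (SD, n = 7) in excitatory neurons, followed by D1 neurons at 33.0 ± 14.1 CPM and the interneurons with Vip and Nts at 32.4 ± 15.5 CPM. These neighbours did not differ beyond their spread. In the oligodendrocyte lineage the precursors held 21.6 ± 9.10 CPM, above the mature oligodendrocytes (4.89 ± 4.73 CPM) in 8 of 8 pools. The profiles most like it were those of Ppp2r2b (r 0.97), Grina (0.94) and Entpd6 (0.94).

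The R4 subfamily holds small proteins that consist of little more than the RGS domain: Rgs2, Rgs4, Rgs5, Rgs8 and Rgs16 of this list. Rgs5, a standard marker of the mural cells that wrap small vessels, lies on the plus strand of chromosome 1 (169655501 to 169695813). In pericytes it held 9937, 10284, 16416 and 9590 CPM in mock pools 1 to 4 and 10778, 15392 and 14067 CPM in morphine pools 2 to 4, since morphine pool 1 had only 5 pericytes. In vascular smooth muscle cells it held 7863, 9768, 10502 and 9311 CPM in mock and 10745, 7615, 8679 and 10185 CPM in morphine pools. The groups overlapped in both classes. The pericyte mean of 12352 ± 2855 CPM (SD, n = 7) was 1.32 times the smooth muscle mean, and pericytes were higher in 7 of 7 pools. Endothelial cells, next in order, held 228 ± 157 CPM, 1.85% of the pericyte level. The most similar profiles belonged to Enpep (r 0.98), Gper1 (0.97) and P2ry14 (0.97), each highest in pericytes.

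Rgs4, which acts on Gi, Go and Gq alpha subunits and is cleared rapidly as a protein, lies 45663 bases from Rgs5, on the other strand. It was also highest in pericytes, at 1744 ± 426 CPM (SD, n = 7), and in smooth muscle cells, at 1198 ± 154 CPM (n = 8), with pericytes above in 6 of 7 pools. Next came D1 neurons at 694 ± 185 CPM and D2 neurons at 589 ± 284 CPM, which did not differ beyond their spread. D1 Foxp2 neurons held 210.4 ± 40.9 CPM, so the D1 mean was 3.30 times theirs and higher in 8 of 8 pools. The neurons and the mural cells differ in Rgs5: D1 neurons held 12.96 ± 8.21 CPM of it. The profiles most like that of Rgs4 were those of Il34 (r 0.92), Gucy1b1 (0.91) and Bcr (0.89). Gucy1b1 encodes the beta subunit of soluble guanylyl cyclase, the nitric oxide receptor.

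Rgs2, which prefers Gq alpha and whose messenger rises quickly after cell stimulation, was highest in microglia. The mock pools 1 to 4 held 673, 831, 742 and 793 CPM there and the morphine pools 413, 859, 775 and 912 CPM. Perivascular macrophages (641 ± 234 CPM, SD, n = 5), D2 neurons (561 ± 113 CPM) and D1 neurons (507 ± 116 CPM) followed, and of these 4 means no neighbours differed beyond their spread. D1 Foxp2 neurons held less than D1 neurons in 8 of 8 pools (343 ± 45.1 CPM). Within the mural cluster, 134 smooth muscle cells with high immediate early genes (Fos at 5616 CPM) held 219.8 CPM of Rgs2 and 6513 CPM of Rgs5. The 242 other smooth muscle cells held 93.9 CPM of Rgs2 and 10985.5 CPM of Rgs5, with Fos at 499 CPM. These subclusters were built from the same cells, and their values are a description over all pools. The profiles most like that of Rgs2 were those of Rnf166 (r 0.89), Mrtfa (0.89) and Tut1 (0.87).

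Rgs8, a regulator of Gi and Go alpha found in neurons, was highest in D2 neurons (124 ± 26.2 CPM), D1 neurons (114 ± 20.9 CPM) and D1 Foxp2 neurons (98.0 ± 25.7 CPM). The D1 Foxp2 mean lay beyond the spread of the next class, the interneurons with Vip and Nts (61.4 ± 26.3 CPM). Its nearest profiles were those of Actl6b (r 0.96), Gabra2 (0.96) and 1700037H04Rik (0.95). Rgs16, whose gene begins 40025 bases beyond the end of Rgs8 on the same strand, had another pattern. It was highest in neuroblasts (91.2 ± 36.5 CPM, from 81 UMIs in all) and dividing progenitors (56.4 ± 23.8 CPM, also 81 UMIs), and held 8.57 ± 4.93 CPM in D2 neurons. Newly formed oligodendrocytes held 34.6 ± 18.9 CPM of Rgs16, while precursors held 0.871 ± 2.46 CPM and mature oligodendrocytes 2.48 ± 1.31 CPM. Between these progenitors and the newly formed oligodendrocytes in order lay pericytes, at 37.3 ± 67.5 CPM from 7 UMIs. The profile nearest to Rgs16 was that of Cemip2 (r 0.77), then Gm8186 (0.73) and Rbm3 (0.70). Exons of Gm29529 and Gm28513 overlap Rgs8 and Rgs16 on the other strand, and since no source used here says whether reads were counted by strand, such partners cannot be told apart.

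Rgs10 and Rgs14 belong to the R12 subfamily. Rgs10 is a small Gi alpha regulator known from microglia and other immune cells, and it was highest in microglia, with 854, 1074, 1113 and 939 CPM in mock pools 1 to 4 and 619.7, 525, 1129 and 853 CPM in morphine pools. Morphine pools 1 and 2 lay lowest, but the groups overlapped. The mean of 888 ± 224 CPM (SD, n = 8) was 1.90 times that of perivascular macrophages (467 ± 74.4 CPM, n = 5) and higher in 5 of 5 pools. Next came the 3 interneuron classes at 170.3 to 183 CPM, which did not differ beyond their spread, and D2 neurons at 149 ± 25.7 CPM, above D1 neurons (123 ± 28.2 CPM) in 8 of 8 pools. The profiles most like it included those of Aftph (r 0.85) and Rragc (0.82). Rgs14, a scaffold that joins the RGS domain to Ras-binding domains and a GoLoco motif, was highest in D2 neurons (77.6 ± 9.77 CPM), D1 neurons (65.9 ± 12.32 CPM) and D1 Foxp2 neurons (50.4 ± 7.49 CPM). Excitatory neurons held 39.5 ± 9.07 CPM. Its nearest profile was that of Ppp3ca, the catalytic subunit of calcineurin (r 0.95), followed by Ddn (0.95) and Ano3 (0.94).

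Rgs20 is the one member of the RZ subfamily in the list, and its protein prefers the Gz alpha subunit and has been found with the mu opioid receptor. It was highest in astrocytes, at 267 ± 62.8 CPM (SD, n = 8), ahead of D1 neurons (212 ± 53.0 CPM) in 7 of 8 pools but within their spread. D2 neurons (179 ± 49.95 CPM), dividing progenitors (131 ± 44.5 CPM) and D1 Foxp2 neurons (99.1 ± 28.0 CPM) followed. In astrocytes the spiny markers stood at a median of 9.12% of their spiny level, while Rgs20 stood at 126% of its own. Along the oligodendrocyte lineage Rgs20 was higher in precursors (56.9 ± 23.3 CPM) than in mature oligodendrocytes (14.49 ± 6.57 CPM) in 8 of 8 pools. The profiles nearest to Rgs20 were those of Mapk4 (r 0.82), Sorcs2 (0.81) and Agfg2 (0.80).

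**Figure D1:**
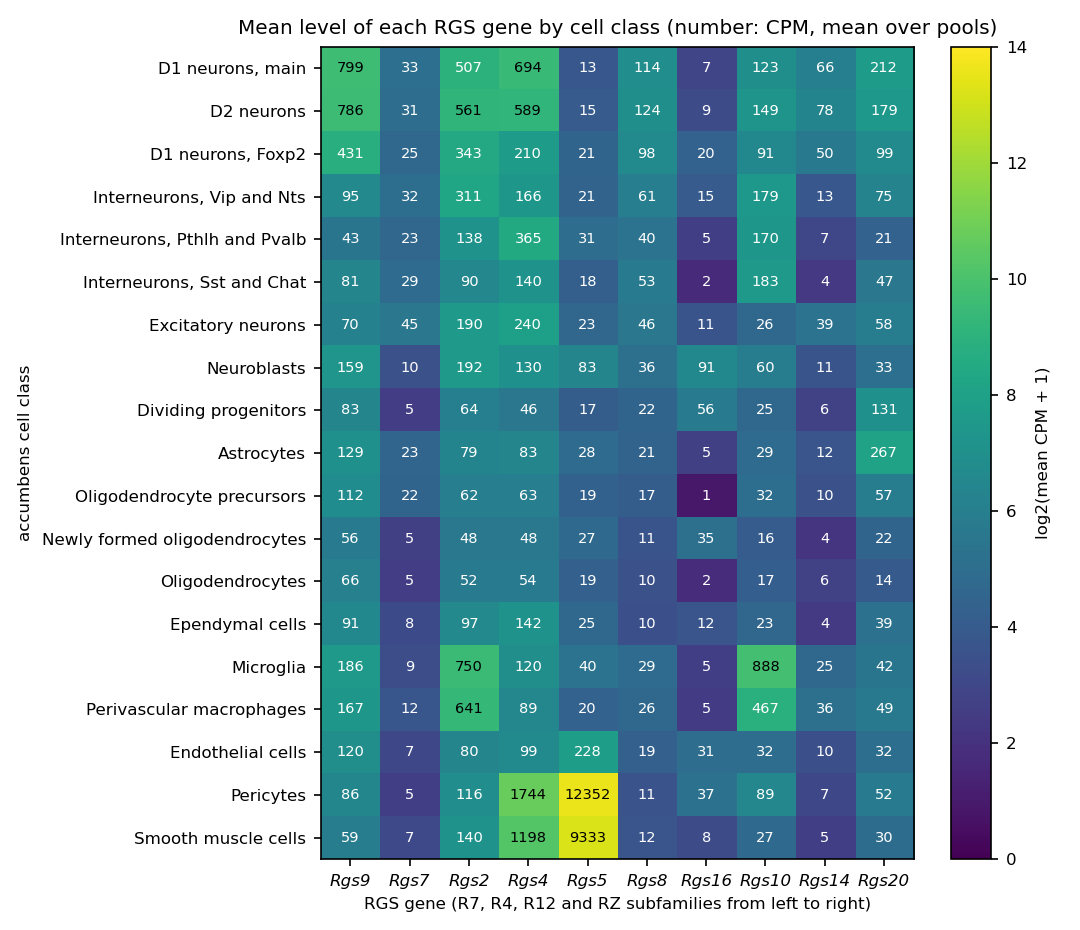
Mean CPM of each RGS gene (columns, ordered by subfamily) in each accumbens cell class (rows), over the pools with at least 10 cells of the class; colour is log2(mean CPM + 1) and the number in each cell is the mean CPM. Rgs5 and Rgs4 peak in pericytes and smooth muscle cells, Rgs9 in spiny neurons, Rgs10 and Rgs2 in microglia, Rgs16 in neuroblasts and Rgs20 in astrocytes.

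**Figure D2:**
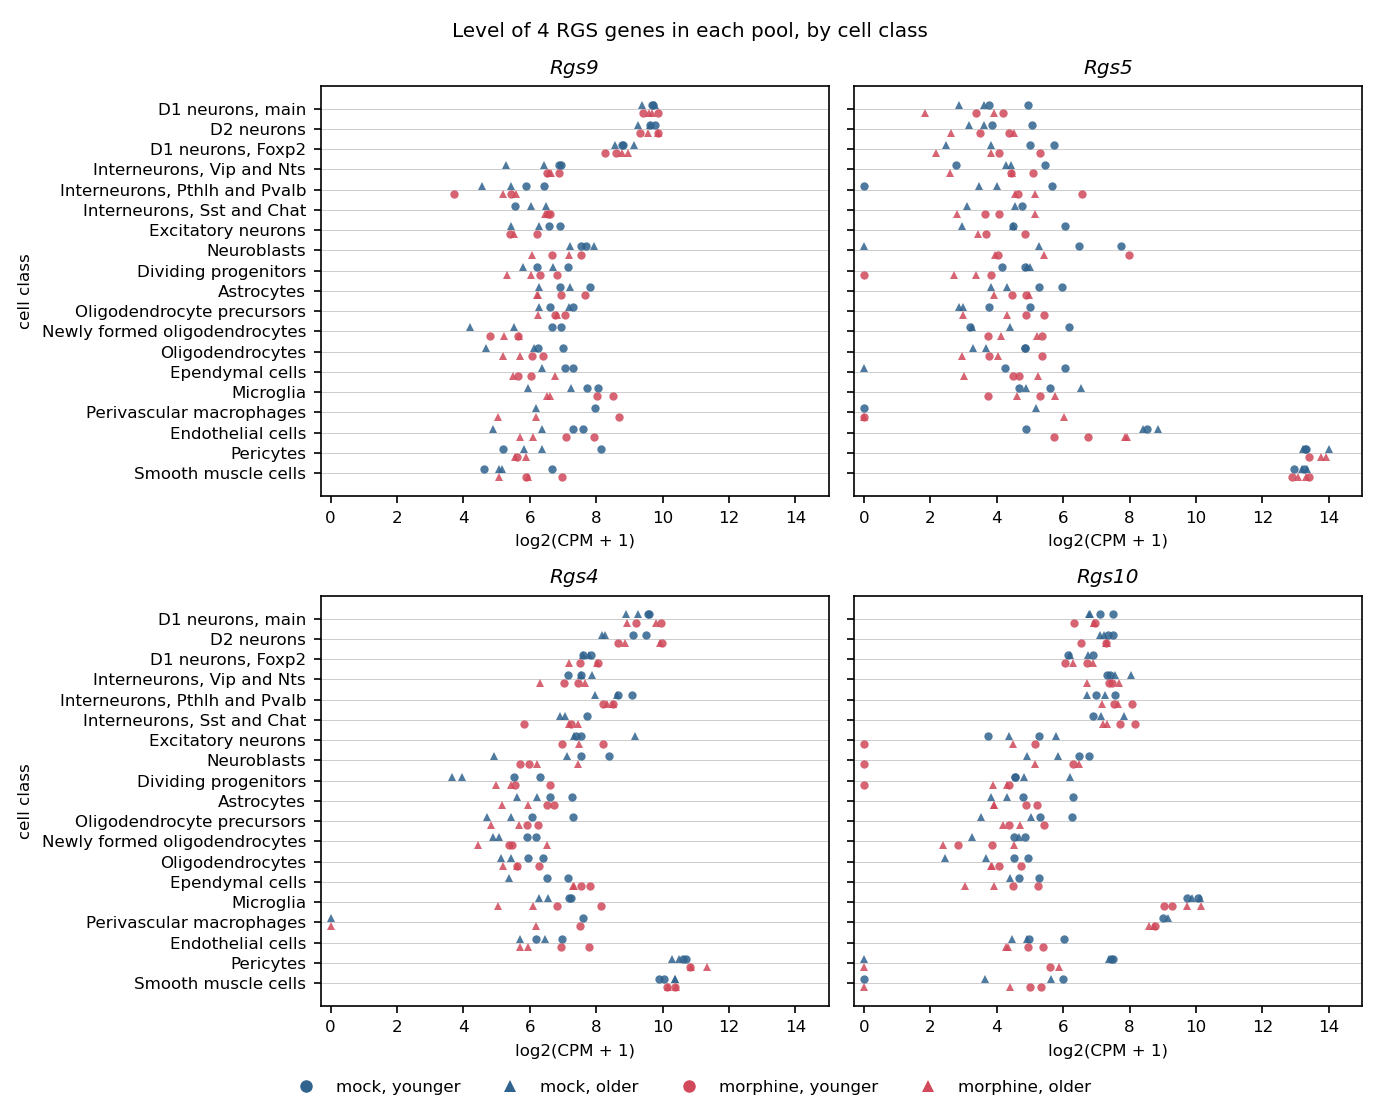
Level of Rgs9, Rgs5, Rgs4 and Rgs10 as log2(CPM + 1) in each pool (points) by cell class, with mock in blue, morphine in red, younger pools as circles and older pools as triangles. In the highest class of each gene the mock and morphine points overlap, apart from Rgs4 in pericytes, where the morphine points lie higher; in microglia the lowest Rgs10 points are morphine pools 1 and 2.

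The comparison of morphine with mock asked whether treatment changed the messenger of any of these regulators in a cell class. No member was called in any class: 0 of 105 member tests over 18 classes had an adjusted p under 0.05 in edgeR's quasi-likelihood test, where 12 of 105541 gene tests did (0.0114%). At an unadjusted p under 0.05 there were 8 member tests (7.62%), 7 of them lower in morphine, against 2.99% of all gene tests. DESeq2 also called 0 member tests. In all cells together 0 of 10 members and 0 of 15012 genes were called (0%), and 0 members had an unadjusted p under 0.05.

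Rgs20 had all morphine pools below all mock pools in 4 of the 10 classes where it was tested, and no other member was so placed in any class. In D1 neurons it held 313, 252, 222 and 224 CPM in mock pools 1 to 4 and 156, 157, 175 and 202 CPM in morphine pools 1 to 4. All morphine pools lay below all mock pools, as they did for 2.07% of the genes tested in that class. The log2 change was -0.47 (SE 0.151, edgeR unadjusted p = 0.00811, adjusted p = 0.9998).

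In D1 Foxp2 neurons Rgs20 held 139, 126, 115 and 117 CPM in mock and 80.6, 72.7, 65.4 and 77.7 CPM in morphine pools. The groups again did not overlap (1.91% of genes lay so), and the log2 change was -0.67 (SE 0.167, edgeR unadjusted p = 0.000671, adjusted p = 0.999). The lowest count behind these values was 10 UMIs, in morphine pool 3 with its 44 such cells. In D2 neurons Rgs20 held 278, 223, 174 and 172 CPM in mock and 158, 120.1, 139 and 165 CPM in morphine pools. The highest morphine pool lay just under the lowest mock pool (1.71% of genes did not overlap in this direction), with a log2 change of -0.47 (SE 0.174, edgeR unadjusted p = 0.0161, adjusted p = 0.9995).

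In astrocytes Rgs20 held 282, 312, 367 and 305 CPM in mock and 221, 166, 229.7 and 251 CPM in morphine pools. The groups did not overlap there either (2.06% of genes), with a log2 change of -0.43 (SE 0.187, edgeR unadjusted p = 0.0332, adjusted p = 0.9997). The summed spiny markers in the same astrocytes ran from 1036 to 4055 CPM over the mock pools and from 1254 to 2466 CPM over the morphine pools, so that range overlapped. In 4 further classes the log2 change of Rgs20 was also below 0 and in 2 above 0, out of 10 classes tested. None of these changes passed the adjusted threshold, and they are given as values. All classes were cut from the same pools, so the classes are not independent samples of the treatment.

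Within ages, the ratio of morphine to mock means was lower than 1 in both. In D1 neurons it was -0.86 on the log2 scale in younger and -0.24 in older pools, in D2 neurons -0.85 and -0.19, in D1 Foxp2 neurons -0.79 and -0.69, and in astrocytes -0.62 and -0.48. Whether the ages differed in this was not tested. In all cells together Rgs20 held 185, 161, 98.7 and 131 CPM in mock and 101, 80.9, 112 and 116 CPM in morphine pools. These groups overlapped, and the log2 ratio was -0.93 in younger and -0.01 in older pools (-0.41 over all, SE 0.1998, edgeR adjusted p = 1.00).

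Exons of Rgs20, on the minus strand of chromosome 1 (4909576 to 5070285), overlap exons of Atp6v1h and Gm17101 on the other strand. Atp6v1h, a subunit of the proton pump of acidic organelles, had log2 changes of -0.20 in D1, -0.25 in D1 Foxp2, -0.14 in D2 neurons and -0.16 in astrocytes, with edgeR unadjusted p-values of 0.140, 0.144, 0.353 and 0.420. Its part in the Rgs20 counts was not tested.

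**Figure D3:**
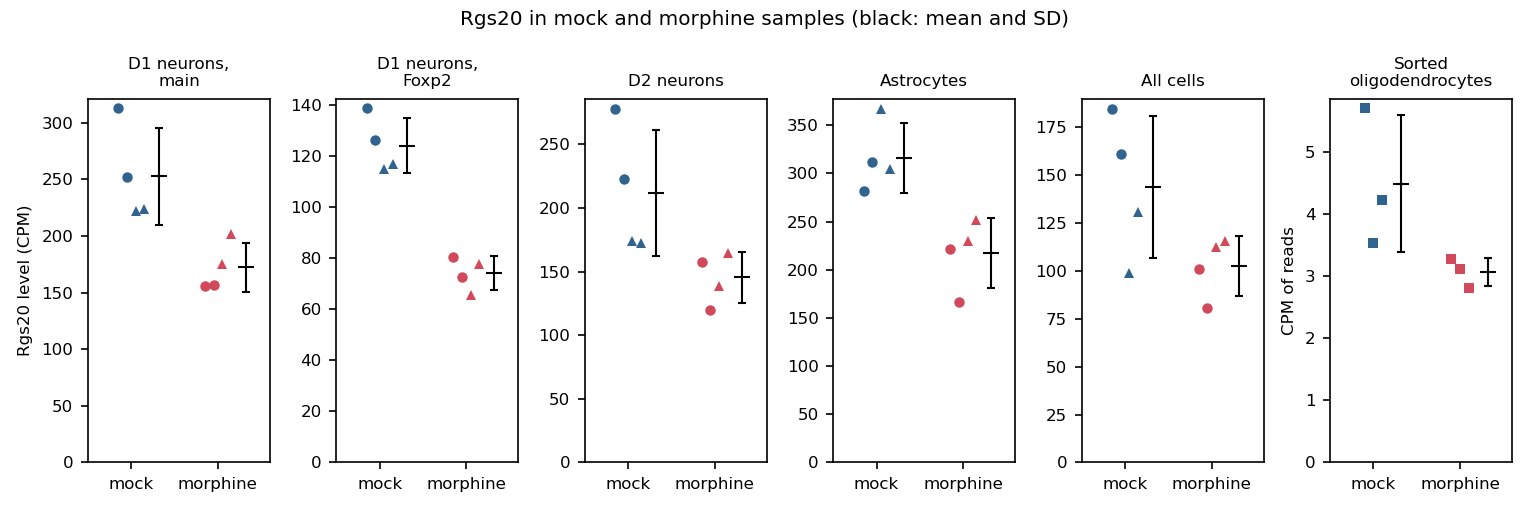
Rgs20 level in CPM in each sample of the mock and morphine groups, for 4 accumbens classes, all accumbens cells and sorted oligodendrocytes; circles are younger and triangles older pools, squares are mice, and black bars give the mean and SD. In the 4 classes and the sorted cells all morphine samples lie below all mock samples, while in all cells together they overlap; none passed the adjusted threshold.

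Rgs4 moved the other way in some classes, without a call. In pericytes it held 1573, 1682, 1442 and 1250 CPM in mock pools 1 to 4 and 1824, 2581 and 1856 CPM in morphine pools 2 to 4. All morphine pools lay above all mock pools, as for 2.96% of the 641 genes tested there. The log2 change was 0.44 (SE 0.255, edgeR unadjusted p = 0.0955, adjusted p = 0.973), and 26 UMIs lay behind the lowest value. In D2 neurons Rgs4 held 553, 717, 287 and 309 CPM in mock and 1019, 399.9, 967 and 461 CPM in morphine pools. Morphine pools 1 and 3 stood above the other six, the groups overlapped, and the log2 change was 0.68 (SE 0.327, edgeR unadjusted p = 0.0572, adjusted p = 0.9995).

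Among the smaller classes, ependymal cells had Rgs4 higher in morphine, at 181 ± 30.2 CPM (SD, n = 4) against 90.9 ± 50.5 CPM (n = 3), with no overlap (2.57% of genes) and a log2 change of 0.89 (edgeR adjusted p = 0.76). Rgs9 was lower there (log2 change -0.91, adjusted p = 0.861). In neuroblasts Rgs4 (-1.004) and Rgs9 (-0.84) were lower, both with an edgeR adjusted p of 0.978. These 4 values rest on 75 to 127 UMIs per gene over all pools, and the lowest pool had 1 to 4 UMIs. Rgs9 in its own classes had log2 changes of 0.07 (SE 0.140) in D1, 0.17 (SE 0.166) in D2 and -0.12 (SE 0.172) in D1 Foxp2 neurons. Rgs2 and Rgs10 in microglia had changes of -0.00 (SE 0.283) and -0.31 (SE 0.294), and Rgs5 had 0.20 (SE 0.273) in pericytes and 0.06 (SE 0.213) in smooth muscle cells. With library size as the only scaling the smooth muscle value of Rgs5 was -0.05 and the D1 value of Rgs9 was -0.00, and with DESeq2 the microglial value of Rgs2 was 0.01, so the direction of these 3 is not given.

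In sorted oligodendrocytes all 10 RGS genes had reads in every library. Rgs5, the mural cell marker, held 31.2, 24.4 and 31.0 CPM in mock mice 1 to 3 and 20.6, 34.6 and 31.0 CPM in morphine mice 1 to 3. Rgs2 held 6.54, 5.20 and 6.49 CPM in mock and 6.22, 5.08 and 5.46 CPM in morphine mice. The other 8 had group means of 0.150 to 4.49 CPM. The sorted cells also held pericyte markers (58.2 to 65.8 CPM summed over 9 genes in the mock group and 44.6 to 50.1 CPM in the morphine group) and spiny neuron markers (43.3 to 47.5 and 35.4 to 42.8 CPM over 10 genes), with none of either list at 0. In both sums the groups did not overlap, with the morphine mice lower. Other lists did not follow this. Astrocyte markers summed to 659 to 782 CPM in the mock and 678 to 740 CPM in the morphine group (12 genes). Smooth muscle markers summed to 27.5 to 43.0 and 40.7 to 53.2 CPM (9 genes, 2 of them lower in morphine). The groups overlapped in these. The part of such other cells in the RGS reads was not tested.

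No member was called between the sorted groups: 0 of 9 tested, where 2321 of 15741 genes were called by edgeR (14.7%). At an unadjusted p under 0.05 there was 1, Rgs20, and DESeq2 also called 0. Rgs14, with 1 to 9 reads per library, lay under the filter. The median log2 change of the 9 was -0.31, against -0.02 over all genes tested.

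Rgs20 held 5.70, 3.54 and 4.22 CPM in mock mice 1 to 3 (123, 53 and 78 reads) and 3.27, 3.11 and 2.81 CPM in morphine mice 1 to 3 (62, 57 and 66 reads). All morphine mice lay below all mock mice, as they did for 16% of the genes tested. The log2 change was -0.55 (SE 0.207, edgeR unadjusted p = 0.0163, adjusted p = 0.0918). Without mock mouse 2 it was called (log2 -0.68, edgeR adjusted p = 0.0169), and over the 11 alternatives the adjusted p ran from 0.0169 to 0.464. The authors' deposited table gives Rgs20 a log2 fold change of -0.44 with an adjusted p of 0.289, and calls none of the members. Atp6v1h, whose exons overlap it, had a log2 change of 0.28 in these cells (edgeR adjusted p = 0.147).

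Rgs8 held 0.788, 2.94 and 1.84 CPM in mock mice 1 to 3 and 0.685, 1.20 and 1.24 CPM in morphine mice 1 to 3, with overlap and a log2 change of -0.76 (SE 0.422, edgeR adjusted p = 0.289). Rgs10 held 4.50, 2.80 and 3.46 CPM against 2.69, 2.84 and 3.07 CPM (log2 change -0.31, SE 0.217, edgeR adjusted p = 0.421). Of the others, Rgs5 had a log2 change of 0.01 (SE 0.130; -0.01 with library size as the only scaling), Rgs2 one of -0.11 (SE 0.156), Rgs4 one of 0.14 (SE 0.212), Rgs7 one of -0.23 (SE 0.319), Rgs9 one of -0.31 (SE 0.299) and Rgs16 one of -0.45 (SE 0.510). None of these 6 passed the threshold at their depth of 7 to 727 reads per library.

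**Figure D4:**
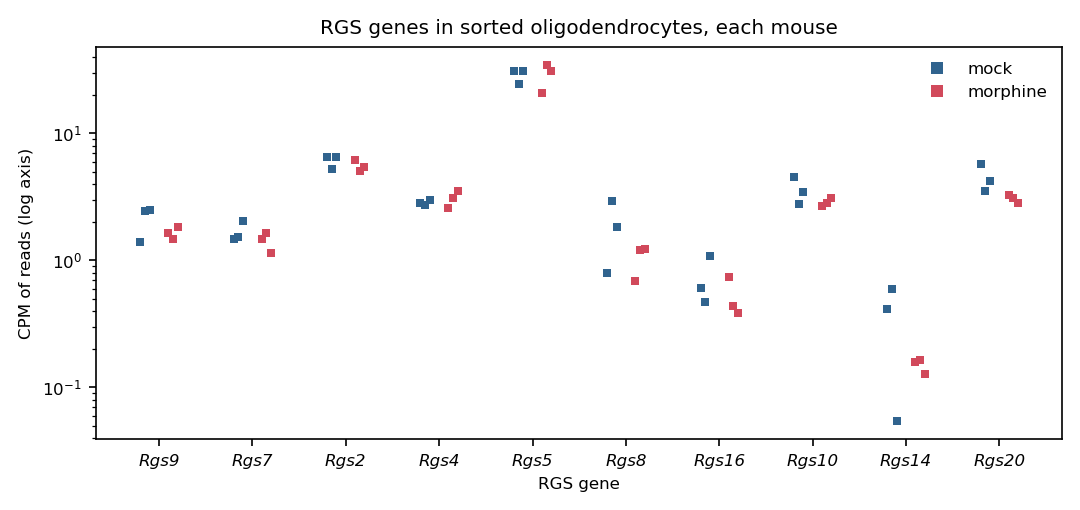
CPM of reads (log axis) of the 10 RGS genes in sorted oligodendrocytes, each square a mouse, mock in blue and morphine in red. The groups overlap for all genes but Rgs20.

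Genes of the same pathway, from 8 fixed lists, were called in the sorted cells. Of 12 other RGS genes tested 2 fell, Rgs17 (log2 -0.66, edgeR adjusted p = 0.0233), another member of the RZ subfamily of Rgs20, and Axin2 (-0.53, adjusted p = 0.0174), an RGS-domain protein of the Wnt pathway. Rgs17 went from 4.73 ± 0.796 CPM (SD, n = 3) to 2.91 ± 0.169 CPM. Of 12 G alpha subunits 1 rose and 4 fell: Gnao1, the Go alpha subunit, rose by 0.42 on the log2 scale, and Gna15 (-1.77), Gnai1 (-0.28) and Gnaq (-0.25) fell most, with edgeR adjusted p-values of 6.82e-06, 0.0251, 0.000864 and 0.0021. Of 12 G beta and gamma subunits Gng12 rose (0.57) and Gng11 fell (-0.85), with edgeR adjusted p-values of 3.94e-07 and 1.31e-07.

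Of 7 other modulators of G proteins 2 rose, Gpsm1 (log2 1.63, edgeR adjusted p = 1.64e-09) and Gpsm2 (0.79, adjusted p = 4.17e-07), which bind inactive Gi alpha through GoLoco motifs. Gpsm1 went from 7.26 ± 0.892 to 22.2 ± 2.71 CPM (SD, n = 3). Of 21 effectors Adcy5 (0.41) and Adcy9 (0.36), adenylyl cyclases, rose and Arhgef12 (-0.20) fell, with edgeR adjusted p-values of 1.56e-05, 0.0367 and 0.0165. Of 27 receptors coupled to Gi, Go or Gq 1 rose and 5 fell: the adenosine receptor gene Adora1 rose (0.39) and Htr2c (-0.79), Cx3cr1 (-0.67) and P2ry12 (-0.59) fell most, with edgeR adjusted p-values of 0.000543, 0.0253, 0.000498 and 0.00781. Cx3cr1 and P2ry12 are microglial markers, and the 12 microglial markers summed to 69.3 to 82.03 CPM in the mock group and 70.4 to 73.3 CPM in the morphine group, with 6 of 12 lower in morphine. Of 7 receptor kinases and arrestins Grk5 fell (-1.17, edgeR adjusted p = 0.00564), and 0 of 5 partners of the R7 proteins changed (0 at an unadjusted p under 0.05). The share of all genes called was the 14.7% given above, and the lists are read against it. Markers of other cells also moved between the sorted groups without overlap: precursor markers summed to 849 to 982 CPM over the mock mice and 1099 to 1213 CPM over the morphine mice (11 genes), neuroblast markers to 38.5 to 52.1 and 115 to 136 CPM (9 genes, 5 of them lower in morphine) and endothelial markers to 79.3 to 85.05 and 50.02 to 69.8 CPM (12 genes). Their part in the called genes was not tested. In the accumbens classes 0 genes of these 8 lists were called between morphine and mock by edgeR.

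Older pools were compared with younger ones with treatment in the model. Age in these pools goes with replicate numbers 3 and 4 against 1 and 2, so it cannot be told apart from whatever else separates those numbers. Of 105 member tests 3 were called by edgeR, all lower in older pools, where 430 of 105541 gene tests were called (0.407%), and 25 (23.8%) had an unadjusted p under 0.05, against 11.7% of all gene tests. Of these 25, 23 were lower in older pools. Rgs9 had 7 of them, Rgs4 and Rgs5 5 each, Rgs2 4, Rgs10 3 and Rgs8 1. In astrocytes, for example, Rgs4 had a log2 change of -0.95 and Rgs10 one of -1.31, without a call. In the spiny classes where Rgs9 is highest it had log2 changes of -0.01 (SE 0.140, D1), -0.03 (SE 0.166, D2) and 0.25 (SE 0.1604, D1 Foxp2). Rgs9 was lower in older pools in 13 of 15 classes tested, 7 of them with an edgeR unadjusted p under 0.05. Of these 7, 2 were called. Those not called were astrocytes (-0.74), oligodendrocytes (-0.80), newly formed oligodendrocytes (-0.94), dividing progenitors (-0.84) and excitatory neurons (-0.65).

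Rgs9 fell with age in endothelial cells. The younger pools held 192 and 156 CPM (mock) and 245 and 135 CPM (morphine), the older pools 28.9 and 81.3 CPM and 67.0 and 51.5 CPM. No older pool reached the lowest younger one, as for 7.26% of genes there, and the log2 change was -1.55 (SE 0.276, edgeR adjusted p = 0.00656), where 283 of 6364 genes were called (4.45%). The 10 medium spiny neuron markers fell beside it in the same endothelial cells, from 1921 to 3401 CPM summed in younger to 469 to 1494 CPM in older pools, with 10 of 10 lower (two-sided exact permutation test on the sums, p = 0.0286, the smallest that 4 against 4 allow). Their part in the Rgs9 change was not tested. Gnal, Gnao1, Gng7, Adcy5, Rap1gap and Gabbr1 of the lists also fell there, by 0.99 to 2.12 on the log2 scale.

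Rgs9 also fell with age in microglia. The younger pools held 265 and 209 CPM (mock) and 361 and 259 CPM (morphine), the older pools 61.0 and 149 CPM and 90.3 and 96.7 CPM, with no overlap (6.17% of genes). The log2 change was -1.37 (SE 0.296, edgeR adjusted p = 0.0261), where 80 of 4022 genes were called (1.99%). The spiny markers in microglia went from 3107 to 5099 CPM summed in younger to 945 to 2323 CPM in older pools, with 10 of 10 lower (two-sided exact permutation test, p = 0.0286), and their part was not tested. Leaving out mock pool 1 or 3, or morphine pool 1, 2 or 4, ended this call, with edgeR adjusted p-values of 0.0865 to 0.128. Rgs10 and Rgs2, the members highest in microglia, were not called with age there: Rgs10 had a log2 change of 0.47 (SE 0.257, edgeR adjusted p = 0.392) and Rgs2 one of 0.24 (SE 0.259, adjusted p = 0.687).

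The remaining call with age was Rgs5 in D1 Foxp2 neurons. The younger pools held 52.4 and 31.2 CPM (mock) and 38.4 and 15.6 CPM (morphine), the older pools 13.1 and 4.59 CPM and 13.1 and 3.53 CPM. The ages did not overlap (2.26% of genes), and the log2 change was -2.25 (SE 0.417, edgeR adjusted p = 0.0234), where 11 of 9194 genes were called (0.12%). These levels rest on 155 UMIs in all and the lowest pool held 2 UMIs. The 9 pericyte markers summed to 33.4 to 48.2 CPM in younger and 21.2 to 78.5 CPM in older pools (two-sided exact permutation test, p = 1.00), and the 9 smooth muscle markers to 34.5 to 77.0 and 19.4 to 84.99 CPM (exact permutation p = 0.371), so the ages overlapped in both sums. Their part in the Rgs5 change was not tested. Without mock pool 1, mock pool 4 or morphine pool 4 the call was lost, with edgeR adjusted p-values of 0.236, 0.450 and 0.112. In pericytes Rgs5 had a log2 change with age of 0.40 (SE 0.254, edgeR adjusted p = 0.74) and in smooth muscle cells of 0.07 (SE 0.212, adjusted p = 0.929). Of 10 classes tested, Rgs5 was lower in older pools in 7 and higher in 3. At an edgeR unadjusted p under 0.05, without a call, it was lower in oligodendrocytes (-1.19), excitatory neurons (-1.23) and astrocytes (-0.76). In endothelial cells it was higher (1.40), also without a call.

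**Figure D5:**
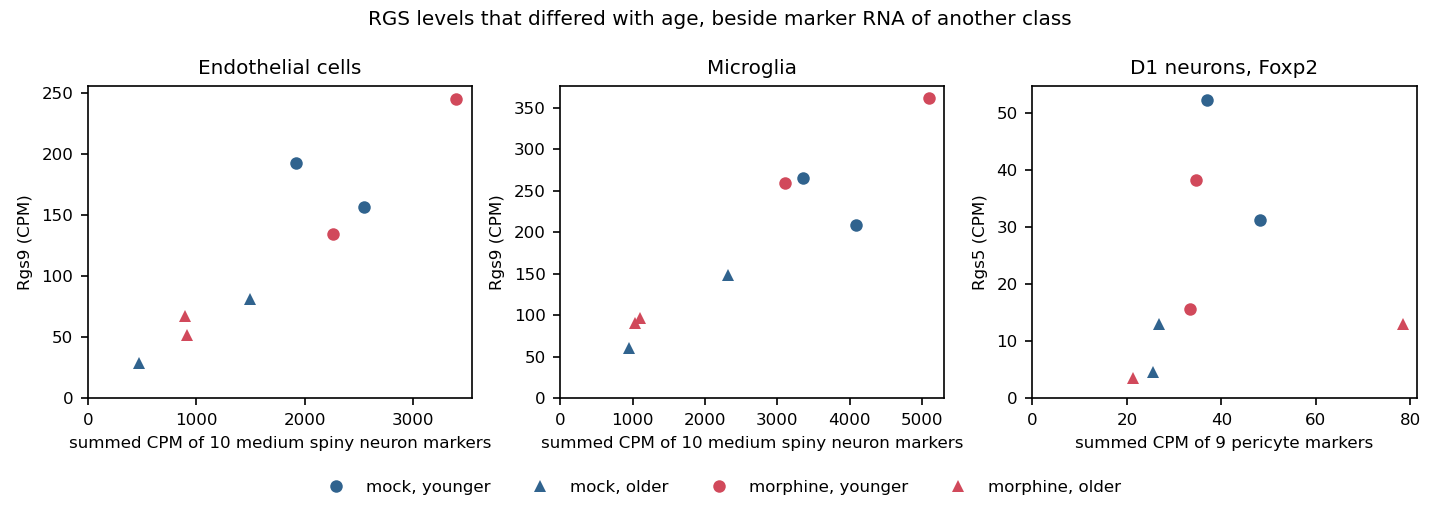
Rgs9 in endothelial cells and microglia, and Rgs5 in D1 Foxp2 neurons (vertical axes, CPM), against the summed CPM of marker genes of another class in the same pool (horizontal axes); circles are younger and triangles older pools, blue mock and red morphine. In endothelial cells and microglia the older pools hold less of both. In D1 Foxp2 neurons the pericyte sums of the ages overlap through morphine pool 3 alone.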

How the data were processed

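Drop-seq of the nucleus accumbens gave 8 deposited tables of UMI counts per gene and cell, and the sorted oligodendrocytes 1 deposited table of read counts per gene. The authors' deposited comparison of the sorted cells holds a mean signal of normalised counts, log2 fold changes, test scores (the statistic) and p-values, and is quoted only where named. The submitters' processing notes list Trimmomatic 0.36, STAR 2.4.2a, HTSeq, DESeq, DESeq2 and mm10 for the series, and which data each served, and whether reads were counted by strand, is not given in the sources used here.

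Gene symbols were brought to one spelling (1647 renamed), and symbols absent from either annotation were dropped, up to 0.801% of UMIs in replicate 1 and 0.0171% in the others. Of 36000 barcodes, 33225 passed (300 or more genes, no more than 20% of UMIs mitochondrial). The 5% of each pool with the highest Scrublet scores (1662) were removed as doublets, since the automatic threshold called from 0% to 6.74% per pool. Clustering in scanpy 1.11.5 used 1994 variable genes without Rgs genes, and classes were named from fixed marker lists. UMIs were summed per pool and class (at least 10 cells in at least 3 pools per group) and tested with edgeR 4.0.16 in R 4.3.3 (quasi-likelihood, TMM, filterByExpr, Benjamini-Hochberg adjustment over all genes of a class, threshold 0.05). The age comparison had treatment in the model. DESeq2 1.42.0 was an alternative, and permutation tests used scipy 1.17.1. Of the sorted reads, 69.5% to 74.3% lay in rows that name no gene and were left out, and 15.0% to 16.9% of the rest were mitochondrial. Pools held 6338935 to 22574541 UMIs, which sets the precision of each level.

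The edgeR steps were tested on simulated data: of genes changed 2-fold, 87% were recovered among 15898 genes for the sorted cells, 82% among 10952 for D1 neurons, 48% among 9085 for astrocytes and 47% among 1156 for smooth muscle cells. In each simulation all genes had the same spread between samples, and 200 genes were changed. In the measured D1 neurons 0 of 10953 genes were called between morphine and mock. The recovered shares hold for the simulated settings and do not give the chance of finding a change in a single member. The members and lists were chosen with earlier results of these data known. The text names all 10 members, the 3 largest called changes in each direction of each list, and the 3 most similar profiles of each member, of which some are not reported here. Alternatives were DESeq2, library size scaling, no filter on low counts, an age covariate, a replicate block, at least 500 genes per cell, classes from marker scores, mitochondrial genes left out, doublets kept (chosen after seeing the data) and leaving out each replicate. Same-numbered mock and morphine pools share the ages of their mice, but the labels give no shared litter, batch or day, and correlations of same-numbered deviations were -0.12 to 0.02 in sorted cells and 0.43, -0.08, -0.05 and 0.69 for accumbens numbers 1 to 4. Same-numbered accumbens tables also held equal numbers of barcodes, 3000 for numbers 1 and 3 and 6000 for numbers 2 and 4. Number 1 of both groups had another gene annotation than the rest. The main test did not use the numbers as pairs, so differences between numbers stay in its spread between pools. The replicate block, with its counts given below, takes the numbers into the model.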

Additional observations from a re-analysis of the deposited data

Results flagged for a closer look

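Rgs5 in pericytes stood apart in mock pool 3, at 16416.2 CPM, while the other 3 mock pools held 9589.79 to 10283.7 CPM. A gap of this size relative to the range of the group passed Dixon's test. It was the only such group among 51 groups of 4 pools tested over the members and classes, and chance alone flags a few in so many. The pool held 20 pericytes.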

How the results depend on the processing

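Between morphine and mock, 0 member tests were called in the accumbens under the alternatives run. In sorted cells 0 to 1 were called when 1 mouse was left out (Rgs20 without mock mouse 2). With age, 3 member tests became 10 with no filter on low counts and 1 to 6 when 1 pool was left out; Rgs9 in endothelial cells was called in 12 of 12 alternatives. Over all genes, the 12 gene tests called between morphine and mock became 43 with DESeq2, 25 with an age covariate, 167 with no filter and 0 to 25 without 1 pool; the 430 called with age became 2419 with no filter and 98 to 905 without 1 pool. The sorted cells kept 1758 to 2695 called genes without 1 mouse. Of the single-gene values under the alternatives, 407 kept their direction and side of the threshold, 18 passed it, 8 lost it and 1 reversed: Rgs2 with age in ependymal cells, not called, went from 0.94 to -0.10 on the log2 scale with classes from marker scores, and the cause was not tested. Over all members and classes, some uncalled values near 0 also changed sign under DESeq2 or library size scaling. The class of highest level was the same for 8 of 10 members with classes from marker scores and for 10 of 10 with the other class alternatives.

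The replicate block called 0 member tests in the accumbens classes, in all cells and in sorted cells, 229 gene tests in the classes and 2197 genes in sorted cells. Same-numbered accumbens pools share mouse ages, and only the samples numbered 1 and 4 correlated best with their own number. Depth limits the small classes: Rgs16 rests on 81 UMIs or fewer in its 3 highest classes, and Rgs14 had too few reads in sorted cells for a test.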

Other observations

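Cells that stayed unnamed also held these genes. The largest unnamed cluster, 1715 cells with a median of 1035 UMIs, held 514 CPM of Rgs9, 357 CPM of Rgs4 and 318 CPM of Rgs2. A mural subcluster of 111 cells with a median of 3463 UMIs held 2353 CPM of Rgs5 together with 426 CPM of Rgs9. Over the 19 classes the members whose profiles were most alike were Rgs9 and Rgs14 (Pearson's r 0.83 of log2(CPM + 1) class means) and Rgs2 and Rgs14 (0.82), while the neighbours Rgs4 and Rgs5 reached 0.62 and Rgs5 and Rgs7 -0.46. These are descriptions over classes from the same 8 libraries.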
